A study of Mus musculus with 153 samples.

Results

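Keratin-associated proteins are small proteins of the hair shaft that are made late in hair keratinocyte differentiation and form the matrix in which the keratin filaments lie, cross-linked to them and to each other by disulfide bonds. Their genes, named Krtap in the mouse, were taken here as every probe set annotated with a single gene symbol beginning with Krtap. The probe set with the highest mean was kept for each gene, which gave 45 genes of 18810 measured. RefSeq's gene table for GRCm38.p6 lists 56 Krtap symbols. A further 13 probe sets name a Krtap gene together with other genes and were not used as members.

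The values come from tail skin of 81 male and 70 female mice, 1 Affymetrix array per mouse, snap frozen at 8 weeks of age without treatment. The mice were from a backcross: Mus spretus males were mated with Hras -/- females of strain FVB/N, and their F1 daughters were mated back to FVB/N males of Hras genotype -/- or -/+. Each mouse is labelled WT or HET for Hras, the gene of a small GTPase in growth factor signalling. The arrays were processed on 3 plates of 49, 46 and 56 mice, which held 40, 36 and 38 WT mice and 9, 10 and 18 HET mice. In the cross as described, the F1 mothers had their working Hras copy from the spretus side. Every WT mouse would then carry spretus DNA at Hras, while a HET mouse may or may not. That cross would also give more HET than WT pups, yet WT labels outnumber HET labels on each plate. The reason for this excess was not tested, so spretus DNA at Hras cannot be inferred from the labels. Ancestry was not analysed here. The Hras transcript was not analysed here, so the genotype labels were not checked against it.

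The deposited values are log2 RMA summaries of probe set intensity. Array medians lay between 4.67 and 4.89, and the number of mice limits the precision. The labels mark 2 arrays as outliers, both of WT males on plate 2, and these were left out. On 1 of them 31 of the 45 Krtap values lay below those of all mice kept, and on the other none did. For markers of other cell types in the skin, the median Pearson correlation with the mean standardised Krtap level across mice was -0.045 for 7 skeletal muscle genes, 0.093 for 5 adipocyte genes, -0.010 for 6 melanocyte genes, 0.024 for 5 dermal fibroblast genes and -0.19 for 5 macrophage genes. In bulk skin, fewer hair-forming cells and less RNA per cell cannot be told apart.

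The family is divided by protein composition into high sulfur, ultra-high sulfur and high glycine-tyrosine proteins, the first and second rich in cysteine and the third in glycine and tyrosine. In human hair, members of subfamilies 1, 3, 4 and 9 are known from the cortex and members of subfamilies 5, 10 and 12 from the cuticle. By the usual nomenclature of the subfamilies, 16 of the 45 genes were high sulfur, 12 ultra-high sulfur and 15 high glycine-tyrosine. The remaining 2, Krtap31-1 and Krtap31-2, were not assigned. The genes lie in 4 clusters, with 22 members on chromosome 16, 15 on chromosome 11, 5 on chromosome 7 and 3 on chromosome 10. Chromosome 7 holds all of subfamily 5 and chromosome 11 all of subfamilies 1, 3 and 4.

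Most of the family gave strong signals in tail skin. The mean over all mice was above 4.82, the median of all probe sets, for 42 of the 45 genes, and it was 8 or more for 37 and 10 or more for 18. Probe sets differ in how well they hybridise, so the order of these means is not an order of transcript abundance. Among the high glycine-tyrosine genes, the log2 means (± SD over the 81 males and 70 females) were highest for Krtap7-1 at 11.74 ± 0.33, Krtap8-1 at 11.20 ± 0.58, Krtap6-2 at 10.53 ± 0.41 and Krtap6-1 at 10.53 ± 0.40. The lowest of that class were Krtap19-9b at 7.05 ± 1.05 and Krtap6-3 at 7.24 ± 1.24. The 3 lowest SDs of the class were those of Krtap7-1, Krtap6-1 and Krtap6-2, and the highest was that of Krtap6-3.

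In the high sulfur class, Krtap3-3 had the highest mean at 11.52 ± 0.29, followed by Krtap3-1 at 11.29 ± 0.42, Krtap13 at 10.09 ± 0.59 and Krtap3-2 at 10.07 ± 0.35. The lowest were Krtap10-10 at 6.31 ± 0.63 and Krtap12-1 at 7.61 ± 0.82. All 3 measured members of subfamily 3 varied little between mice. In the ultra-high sulfur class, Krtap5-2 stood at 11.56 ± 0.68, Krtap5-5 at 11.5 ± 0.53, Krtap17-1 at 11.5 ± 0.69 and Krtap4-2 at 11.05 ± 0.72, with Krtap4-7 at 8.29 ± 0.79 and Krtap4-6 at 3.92 ± 0.54 the lowest. Krtap4-6 and both unassigned genes, Krtap31-1 at 3.82 ± 0.71 and Krtap31-2 at 4.53 ± 1.06, were the 3 members below the median of all probe sets. Krtap4-6 is also named, with other genes, by 3 of the 13 shared probe sets, whose means were 11.55, 10.19 and 10.33, so the single-symbol value for this gene leaves out signal that could be its own.

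**Figure D1:**
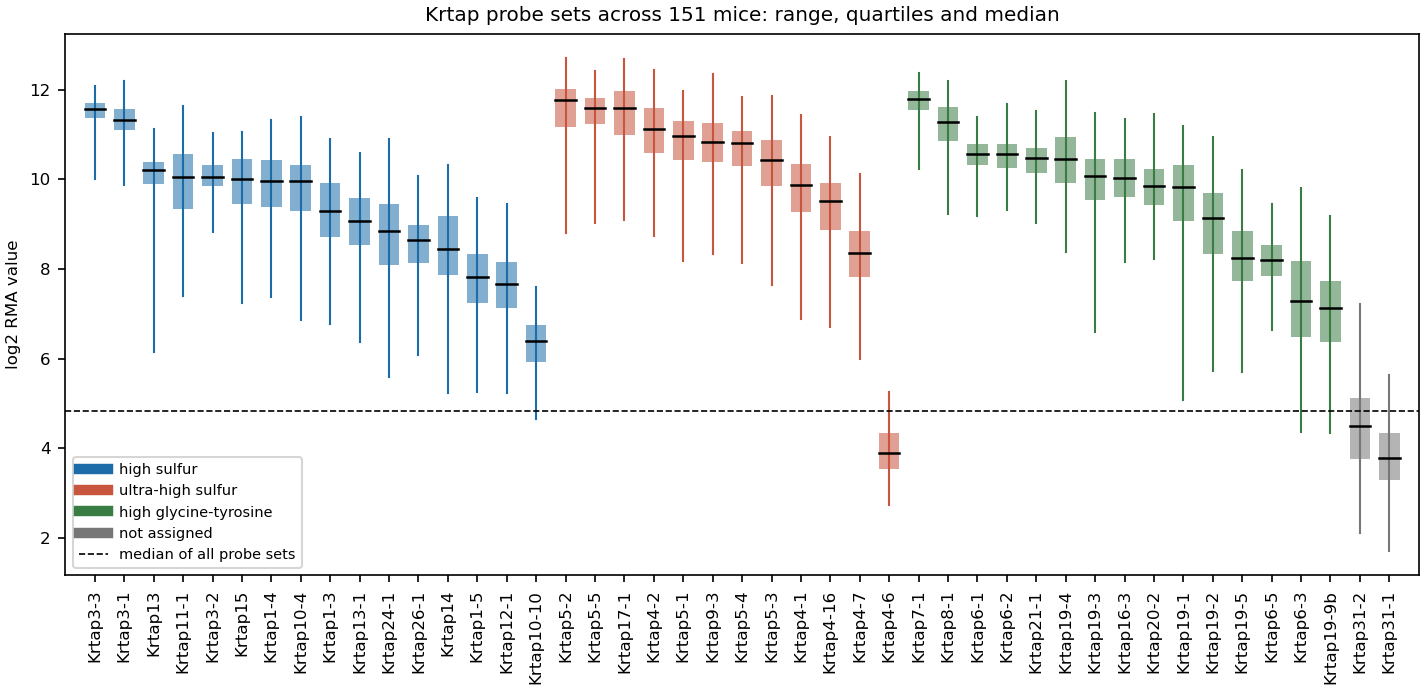
Log2 RMA values of the 45 Krtap genes in the mice of both sexes, ordered by class and median. Thin lines give the range, boxes the quartiles, black bars the median, and the dashed line the median of all probe sets (4.82); 42 genes have means above that line.

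Mice differed widely in the level of the family as a whole. The mean of the 45 log2 values of a mouse ran from 7.55 to 10.54 with a median of 9.40, a span of 2.99 or 7.95-fold. The values were continuous: leaving out the 8 highest and 8 lowest mice, no gap between neighbouring mice exceeded 0.063. The mean Krtap level was nearly unrelated to the array median (Pearson r = 0.11 across mice). Normalization across arrays brings these medians close together, so this r says little about array or RNA quality, whose part was not tested. The SD across mice of single genes ran from 0.29 for Krtap3-3 to 1.24 for Krtap6-3, with a median of 0.73. After Krtap6-3, which ranged from 4.36 to 9.81 (median 7.28), the most variable genes were Krtap19-2 (SD 1.06; 5.73 to 10.94, median 9.13), Krtap31-2 (SD 1.06; 2.11 to 7.22, median 4.49), Krtap14 (SD 1.05; 5.22 to 10.32, median 8.45) and Krtap19-9b (SD 1.05; 4.34 to 9.17, median 7.12).

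**Figure D2:**
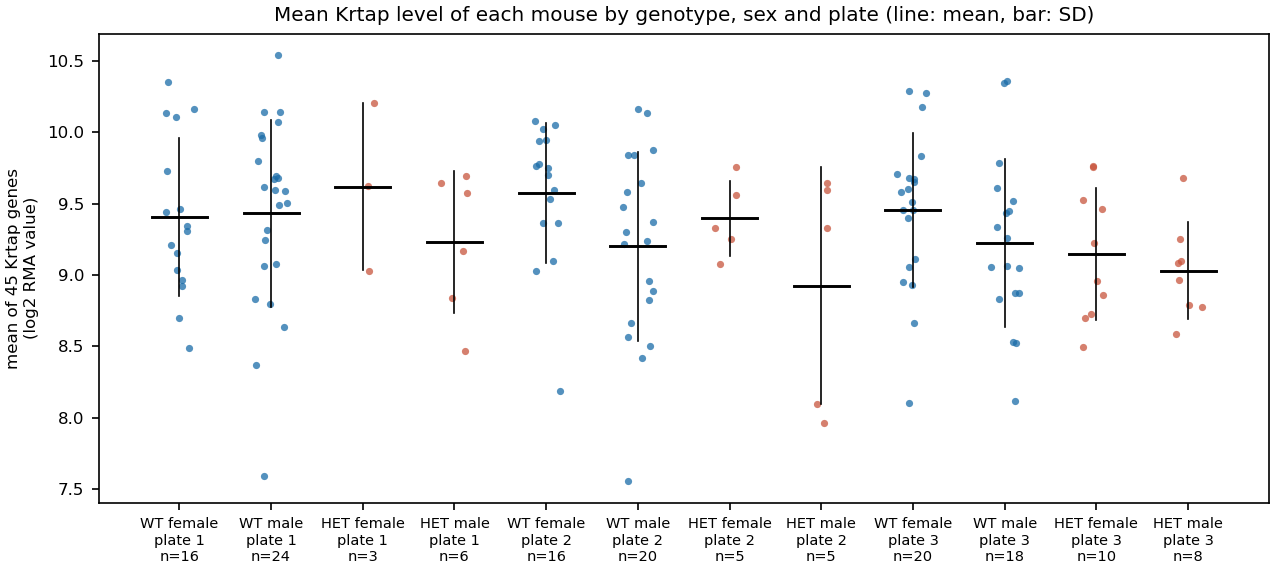
Mean log2 value of the 45 Krtap genes in each mouse (points) by genotype, sex and plate, with the group mean (horizontal bar) and SD (vertical line). The groups overlap throughout; mice run from 7.55 to 10.54.

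The Krtap genes varied together from mouse to mouse. Correlations were computed on residuals after plate, sex and genotype. Over the 990 pairs of Krtap genes the median Pearson r was 0.64 (quartiles 0.43 and 0.80), and 673 pairs, or 67.98%, had an r above 0.5. Over all pairs of the 18810 genes the median was 0.0030, and 0.145% lay above 0.5. Only 30 Krtap pairs were below 0. The median over Krtap pairs was 0.63 with Spearman's rho, and 0.71, 0.70 and 0.58 within plates 1, 2 and 3. Transcripts of near-identical family members can bind each other's probes, and the part of this in the likeness of close relatives was not tested.

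Pairs of the same class were more alike at the median, but not in each class. The median r was 0.75 for 292 pairs of the same class and 0.59 for 698 pairs of different classes, against 0.65 for 349 pairs on the same chromosome and 0.63 for 641 pairs on different chromosomes. All 66 pairs of ultra-high sulfur genes exceeded 0.5, with a median of 0.87. Within the high sulfur class the median was 0.72 and within the high glycine-tyrosine class 0.67. High sulfur and ultra-high sulfur genes reached 0.77 with each other, above the value within the high sulfur class, whereas ultra-high sulfur and high glycine-tyrosine genes reached 0.61 and high sulfur and high glycine-tyrosine genes 0.56. Within subfamilies the median r was 0.96 for subfamily 5, 0.94 for subfamily 4, 0.87 for subfamily 19, 0.67 for subfamily 3 and 0.66 for subfamily 6.

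The closest pairs were Krtap5-2 with Krtap5-4 (r = 0.98, rho = 0.97), Krtap5-1 with Krtap5-4 (r = 0.98, rho = 0.97) and Krtap1-3 with Krtap1-4 (r = 0.97, rho = 0.97). Among the shared probe sets, which were not used as members, some name Krtap5-2 with Krtap5-4, or Krtap5-1 with Krtap5-4 and Krtap5-5. The part of related sequence in the likeness of these genes was not tested. Likeness was not limited to neighbours in a cluster: Krtap10-4 on chromosome 10 and Krtap17-1 on chromosome 11 were each other's closest member at r = 0.95. The genes with the highest median correlation to the other 44 Krtap genes were Krtap1-3 (0.84), Krtap9-3 (0.83), Krtap1-4 (0.82), Krtap4-16 (0.79) and Krtap4-7 (0.78), all on chromosome 11. That chromosome also holds Krtap3-3, Krtap3-1 and Krtap31-1, which are among the lowest. Pairs within chromosome 11 had a median r of 0.54, below the 0.63 of pairs on different chromosomes. Krtap1-3, a high sulfur gene, lay between 6.76 and 10.90 across mice with a median of 9.29.

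At the other end, 5 genes had the lowest median correlation with the family: Krtap13 (-0.030), Krtap6-1 (0.19), Krtap3-3 (0.33), Krtap3-1 (0.34) and Krtap31-1 (0.40). Krtap13 took part in both of the most negative pairs, with Krtap11-1 (r = -0.27, rho = -0.32) and with Krtap14 (r = -0.17, rho = -0.19). Its relative Krtap13-1, on the same chromosome, followed the rest of the family, with a median r of 0.74 against the other members and an r of -0.072 with Krtap13. Krtap3-3 was the Krtap gene closest to Krtap13 (r = 0.71), followed by Krtap3-1 (r = 0.66). For Krtap6-1 the closest Krtap gene was Krtap6-5 (r = 0.75), which was itself closest to Krtap20-2 (r = 0.79).

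**Figure D3:**
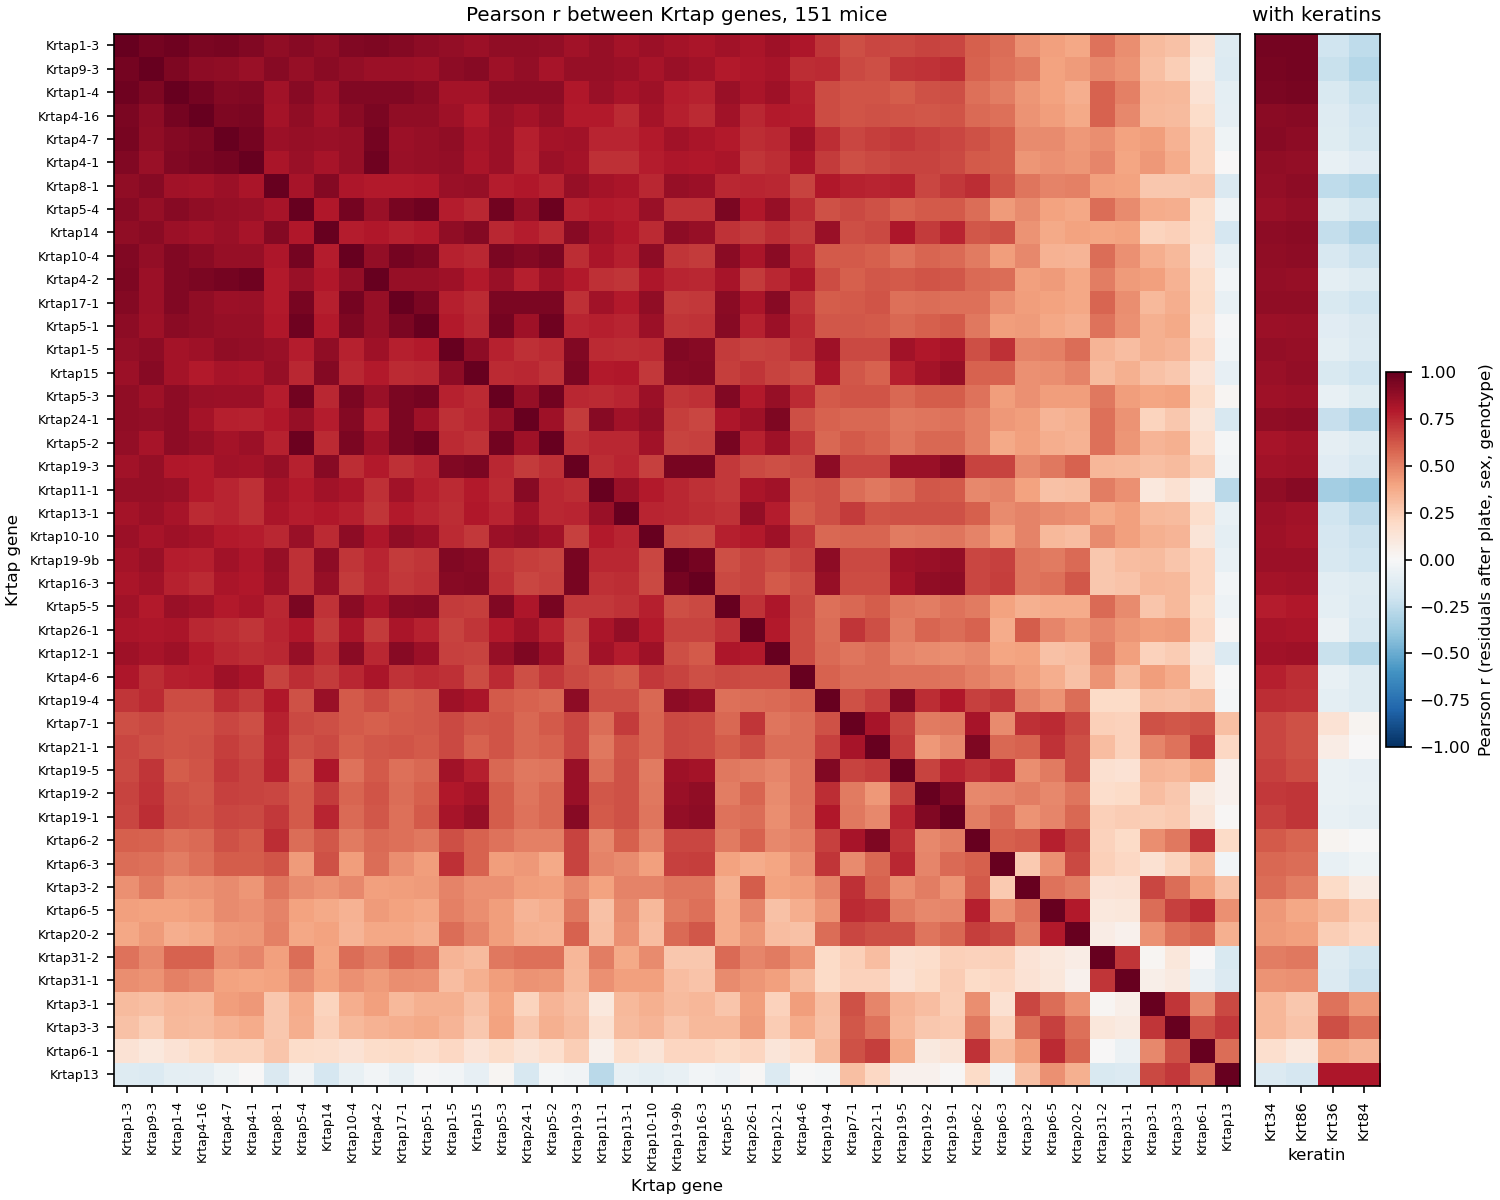
Pearson r on residuals after plate, sex and genotype across mice for each pair of the 45 Krtap genes (left, ordered by median r) and for each Krtap gene with 4 hair-type keratins (right). Most squares are red, and the last row and column, Krtap13, are mostly pale. Their highest values are towards Krtap3-3, Krtap3-1, Krtap6-1 and Krtap6-5 (r = 0.46 for the last). Krtap13 has an r of 0.81 with Krt36 and with Krt84.

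The family was then set against the keratins with which its proteins are packed. Of 16 hair keratin genes listed, 12 were measured. Across mice 10 of these 12 had an r above 0.5 with the mean standardised Krtap level, with a median of 0.81, as did 11 of 12 genes of the inner root sheath and companion layer, the sheaths that mould the growing shaft (median 0.84). For comparison, 266 of 18765 genes outside the family exceeded 0.5. The 2 exceptions among the hair keratins were Krt36 (-0.043) and Krt84 (-0.11), hair-type keratins that are also described outside the hair, in structures such as the papillae of the tongue and, for Krt36, the scales of the tail. Their levels were high and nearly flat, 12.03 ± 0.19 and 12.20 ± 0.15 (SD over all mice). Krt36 and Krt84 varied together (r = 0.84), as did Krt34 and Krt86, keratins of the hair cortex (r = 0.96), while Krt34 and Krt84 had an r of -0.26.

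Each Krtap gene was correlated with these 4 keratins, a comparison chosen after the family correlations had been seen. The median r over the 45 genes was 0.84 with Krt34 and -0.14 with Krt84, and 38 genes exceeded 0.5 with Krt34 against 2 with Krt84. Krtap1-3 had an r of 0.96 with Krt34 (rho = 0.96, permutation p = 1e-05, adjusted p = 2e-05 over 180 pairs) and -0.25 with Krt84 (rho = -0.30, permutation p = 0.0016, adjusted p = 0.0027). Krtap13 showed the opposite order, with an r of -0.14 with Krt34 (rho = -0.17, permutation p = 0.093, adjusted p = 0.12) and 0.81 with Krt84 (rho = 0.69, permutation p = 1e-05, adjusted p = 2e-05). Here 1e-05 is the smallest p the permutations can give. The keratins and the 2 genes were picked with correlations in these same mice known. The adjustment over 180 pairs does not allow for that choice, so the p-values with keratins, here and below, are descriptive. By Pearson's r over all mice, 4 of the 45 genes were closer to Krt84 than to Krt34: Krtap13, Krtap3-1, Krtap3-3 and Krtap6-1. By Spearman's rho there were 3, since Krtap3-3 had a rho of 0.39 with Krt34 and 0.38 with Krt84. On plate 1 alone Krtap13 was the single such gene. There Krtap3-1 had an r of 0.51 with Krt34 and -0.029 with Krt84, Krtap3-3 of 0.53 and 0.037, and Krtap6-1 of 0.17 and 0.11. On plates 2 and 3 there were 6 and 4 such genes, with Krtap13, Krtap3-1 and Krtap3-3 among them on both.

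A WT male on plate 2 bears on these values. Its Krtap13 level was 6.15, against 7.85 for the next lowest mouse, and its Krt84 and Krt36 levels of 11.20 and 11.02 were the lowest of all mice. Leaving out the 2 mice whose Krt84 lay farthest from its median, the r of Krtap13 with Krt84 was 0.71. With no mouse left out, it was 0.56, 0.96 and 0.74 within plates 1, 2 and 3. Krtap3-3 had an r of 0.55 with Krt84 in all mice (rho = 0.38, permutation p = 1e-05, adjusted p = 2e-05) and 0.40 without those 2 mice. Within the plates, again with no mouse left out, it was 0.037, 0.90 and 0.52. The r of Krtap3-3 with Krt84 was thus close to 0 on plate 1, while that of Krtap13 was above 0.5 on each plate. The plate 2 values include the WT male with the lowest Krt84, and how far they rest on it was not tested.

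**Figure D4:**
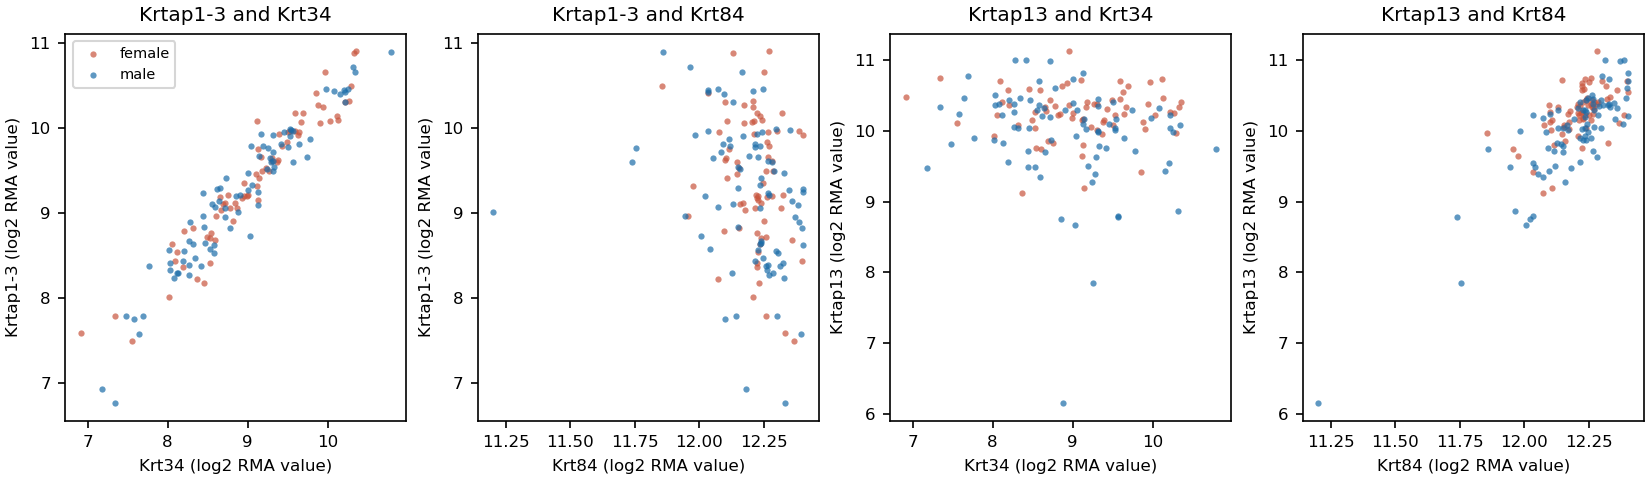
Log2 RMA values of Krtap1-3 and Krtap13 against Krt34 and Krt84 in all mice, females in red and males in blue. Krtap1-3 follows Krt34 (r = 0.96) and Krtap13 follows Krt84 (r = 0.81); the lowest point of Krtap13, at 6.15, is the mouse with the lowest Krt84.

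Among all genes outside the family, those with the highest correlation to the mean Krtap level were mostly of the hair shaft and its sheaths. The highest was Gm11559 (r = 0.94), a predicted gene of chromosome 11, followed by Krt34 (0.94), Krt86 (0.93), Krt26 (0.92), Chac1 (0.92), Gm11567 (0.92), Gprc5d (0.91), Krt33a (0.90), Crnn (0.89), Gm10272 (0.89), Tchh (0.89), Krt27 (0.89), Krt72 (0.88), Krt33b (0.87) and Vsig8 (0.87). Krt33a and Krt33b are further cortex keratins, Krt26, Krt27 and Krt72 are inner root sheath keratins, and Tchh is trichohyalin, which hardens the sheath. Gm11559 and Gm11567 are named beside Krtap9-1 by a shared probe set, so they may measure related sequence. The 5 lowest were Epb41l3 (-0.58), Tgfbi (-0.54), Zfp652 (-0.54), Slc16a14 (-0.53) and Mef2a (-0.53). The median r was -0.33 for the 4 measured genes of the basal epidermis, all below 0. It was -0.18 for the 4 of the suprabasal epidermis, of which 3 were below 0 and Ivl stood at 0.052.

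Because most members vary together and Krtap13 does not, their promoters are shown. The 250 bases before the annotated start, from RefSeq on GRCm38.p6, were found for 41 of the 45 genes, and 5 are printed, each 5′ to 3′ on the strand of its gene. Krtap1-4 and Krtap9-3 follow the family most closely among the genes with a promoter in the table, Krtap13 stands apart from it, Krtap13-1 is its relative that does not, and Krtap3-1 lies between. Capitals mark the letters TATAAA on either strand, and a HOXC13 core, spelled TTTATNAA, TTTATNAG, TTTATNGA, TTTATNGG, TTAATNAA, TTAATNAG, TTAATNGA or TTAATNGG, on either strand.
Krtap1-4 (chr11:99583678-99583927, minus strand): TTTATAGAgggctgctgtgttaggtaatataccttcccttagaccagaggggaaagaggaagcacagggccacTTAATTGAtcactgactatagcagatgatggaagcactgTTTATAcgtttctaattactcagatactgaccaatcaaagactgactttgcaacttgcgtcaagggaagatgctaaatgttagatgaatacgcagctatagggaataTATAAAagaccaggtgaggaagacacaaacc
Krtap9-3 (chr11:99598107-99598356, minus strand): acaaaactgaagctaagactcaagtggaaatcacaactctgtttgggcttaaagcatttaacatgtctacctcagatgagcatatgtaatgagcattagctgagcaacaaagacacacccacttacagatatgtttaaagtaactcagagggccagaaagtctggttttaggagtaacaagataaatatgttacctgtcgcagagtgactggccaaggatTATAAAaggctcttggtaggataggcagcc
Krtap13 (chr16:88751629-88751878, minus strand): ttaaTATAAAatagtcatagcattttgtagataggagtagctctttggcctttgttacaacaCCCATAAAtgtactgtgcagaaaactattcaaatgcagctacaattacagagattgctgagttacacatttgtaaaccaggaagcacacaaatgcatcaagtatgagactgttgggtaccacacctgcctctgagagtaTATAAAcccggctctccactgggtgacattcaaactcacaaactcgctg
Krtap13-1 (chr16:88728612-88728861, plus strand): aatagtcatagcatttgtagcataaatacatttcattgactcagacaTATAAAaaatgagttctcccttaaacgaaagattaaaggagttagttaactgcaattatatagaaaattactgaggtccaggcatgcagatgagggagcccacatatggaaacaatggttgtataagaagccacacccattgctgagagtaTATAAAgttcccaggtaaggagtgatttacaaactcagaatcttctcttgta
Krtap3-1 (chr11:99566631-99566880, minus strand): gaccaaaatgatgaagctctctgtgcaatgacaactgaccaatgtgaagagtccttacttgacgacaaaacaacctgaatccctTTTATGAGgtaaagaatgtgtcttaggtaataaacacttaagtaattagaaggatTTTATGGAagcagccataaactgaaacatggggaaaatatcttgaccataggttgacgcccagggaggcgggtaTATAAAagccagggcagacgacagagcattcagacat

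TATAAA, the usual TATA box, is present in each of the 5. Its first base lies at position -31 from the start in Krtap1-4, -30 in Krtap9-3 and -37 in Krtap3-1. In Krtap13 and Krtap13-1 the nearest match begins more than 40 bases before the annotated start. Over the family, 24 of 41 promoters (58.5%) hold TATAAA on the strand of the gene starting 40 to 20 bases before the start, against 1.99% of 32851 promoters in the table. Counted anywhere in the 250 bases on either strand the match was present in 32 of 41 Krtap promoters and in 12.4% of all.

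The HOXC13 core was present in 20 of 41 Krtap promoters (48.8%) and in 17.2% of all. Some spellings overlap TATAAA. Counting only matches that share no base with TATAAA, the numbers were 18 of 41 (43.9%) and 14.6%. The LEF1/TCF motif, searched as CTTTGA or CTTTGT on either strand, was present in 22 of 41 (53.7%) and in 27.6% of all. Krtap promoters of a subfamily can share sequence by descent and are not independent: in Krtap31-1 and Krtap31-2, 202 of 250 bases were identical. A match is a description of the letters and not a binding site. Krtap9-3, among the closest followers of the family, holds no HOXC13 core in this window, and Krtap13 holds 1. Whether these letters go with the levels over the 41 promoters was not tested.

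The genes of 4 transcription factors known for their part in hair shaft differentiation were next set against each member. Hoxc13 is a homeobox gene whose product activates hair keratin genes, Foxn1 is the gene mutated in nude mice, Msx2 is a homeobox gene of the hair matrix, and Lef1 encodes a mediator of Wnt signalling there. Of the 180 pairs, 174 passed an adjusted p of 0.05 in the two-sided permutation test. The share of all genes that would pass was not computed, so this count and those per transcription factor below have no background. The members also vary together, so the passing pairs are not separate observations. With this many mice a weak correlation passes: the lowest r with Hoxc13, that of Krtap31-1, was 0.17. The levels of the 4 transcription factor genes across mice ran from 7.01 to 8.62 for Hoxc13 (median 7.85), from 6.92 to 8.94 for Foxn1 (7.88), from 5.02 to 7.90 for Msx2 (6.20) and from 4.72 to 7.94 for Lef1 (6.14).

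All 45 Krtap genes were positively correlated with Hoxc13 at that threshold (median r 0.46), and 43 with Foxn1 (median 0.47), 44 with Msx2 (median 0.69) and 41 with Lef1 (median 0.52). The strongest relation to Hoxc13 was that of Krtap3-3 (r = 0.61, rho = 0.58, permutation p = 1e-05, adjusted p = 1.2e-05), which held within plates at 0.48, 0.65 and 0.69. Krtap24-1, a high sulfur gene, was the closest to both Msx2 (r = 0.90, rho = 0.92, permutation p = 1e-05, adjusted p = 1.2e-05) and Lef1 (r = 0.83, rho = 0.85, permutation p = 1e-05, adjusted p = 1.2e-05). Krtap3-1 was the closest to Foxn1 (r = 0.63, rho = 0.65, permutation p = 1e-05, adjusted p = 1.2e-05). Leaving out the 2 mice most distant from the regulator's median, these 4 values were 0.63, 0.89, 0.83 and 0.62.

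Krtap13 again differed in order. It was correlated with Hoxc13 (r = 0.41, rho = 0.36, permutation p = 1e-05, adjusted p = 1.2e-05) and Foxn1 (r = 0.29, rho = 0.32, permutation p = 3e-04, adjusted p = 0.00033), did not pass with Msx2 (r = -0.10, rho = -0.16, permutation p = 0.20, adjusted p = 0.20), and was the single member with a negative relation to Lef1 that passed (r = -0.21, rho = -0.29, permutation p = 0.0084, adjusted p = 0.0088). Krtap3-1 and Krtap3-3 did not pass with Lef1 either, at r = 0.11 and 0.13. The other pairs that missed the threshold were Krtap6-1 with Lef1 (r = 0.083) and Krtap31-1 and Krtap31-2 with Foxn1 (r = 0.15 and 0.16). By Spearman's rho, Krtap6-5 also missed the threshold with Lef1 (adjusted permutation p = 0.065).

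The genotype comparison asked whether any Krtap gene differed between HET and WT skin. None of the 45 passed an adjusted p of 0.05 in limma, against 21 of 18810 genes (0.112%), and the lowest adjusted p of a member was 0.58. At an unadjusted p under 0.05 there were 6 members (13.3%), against 6.57% of all genes. The estimates leaned to lower values in HET mice: 40 of 45 were below 0 (88.9%, against 50.1% of all genes), with a median of -0.20 on the log2 scale against -5.9e-05 over all genes. Since the members vary together, these 40 are not 40 separate observations. The mean Krtap level was 9.38 ± 0.59 in WT mice (7.55 to 10.54, median 9.46) and 9.18 ± 0.50 in HET mice (7.96 to 10.20, median 9.22), and the ranges overlapped almost fully.

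The 5 smallest p-values came from all 3 classes. Krtap1-5 ran from 5.68 to 9.59 in WT mice (median 7.89) and from 5.26 to 8.88 in HET mice (median 7.45). The difference was -0.42 ± 0.15 (SE; limma p = 0.0081, adjusted p = 0.58), and the groups overlapped over most of their range. Krtap6-3 ran from 4.77 to 9.81 in WT mice (median 7.36) and from 4.36 to 9.23 in HET mice (median 6.76), a difference of -0.57 ± 0.23 (limma adjusted p = 0.61). The difference of each of these 2 genes was below 0 on all 3 plates, at -0.19, -0.60 and -0.45 for Krtap1-5 and -0.30, -0.61 and -0.70 for Krtap6-3. Krtap13-1 at -0.29 ± 0.14 and Krtap26-1 at -0.25 ± 0.12 had limma adjusted p-values of 0.74, and Krtap13 stood at 0.065 ± 0.11 (limma adjusted p = 0.96).

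The 5 genes of subfamily 5 lie on chromosome 7, as does Hras, and were each examined. Krtap5-1 had medians of 11.04 in WT (8.17 to 11.98) and 10.65 in HET mice (8.98 to 11.58), with overlapping ranges, and a difference of -0.29 ± 0.13 (limma adjusted p = 0.71). The differences were -0.13 ± 0.13 for Krtap5-2, -0.15 ± 0.14 for Krtap5-3, -0.15 ± 0.12 for Krtap5-4 and 0.0064 ± 0.098 for Krtap5-5, none called. The 4 genes with differences below 0 and Krtap5-5 thus lay within the range of the rest of the family, -0.57 to 0.065. The part of spretus or FVB/N ancestry near Hras in these differences was not tested.

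Estimates of other follicle genes leaned the same way. The median HET minus WT difference was -0.27 for 12 hair keratins and -0.24 for 12 inner root sheath and companion layer genes, with 0 called in either list, and -0.025 for 8 genes of the bulge and resting follicle. With the mean hair keratin level added to the model, the median Krtap difference was -0.016, with 25 of 45 genes below 0 and 0 called, against 0.122% of all genes. At an unadjusted p under 0.05 there were 2, against 6.15% of all genes. That level is itself a readout of the same skin, and what sets it was not tested. The median Krtap difference was -0.063, -0.20 and -0.22 on plates 1, 2 and 3, and 27 of 45 genes were below 0 on all 3. It was -0.20 in females and -0.20 in males. No member passed a genotype by sex interaction (lowest limma adjusted p = 0.998), and none reached an unadjusted p under 0.05 there, against 4.76% of all genes.

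**Figure D5:**
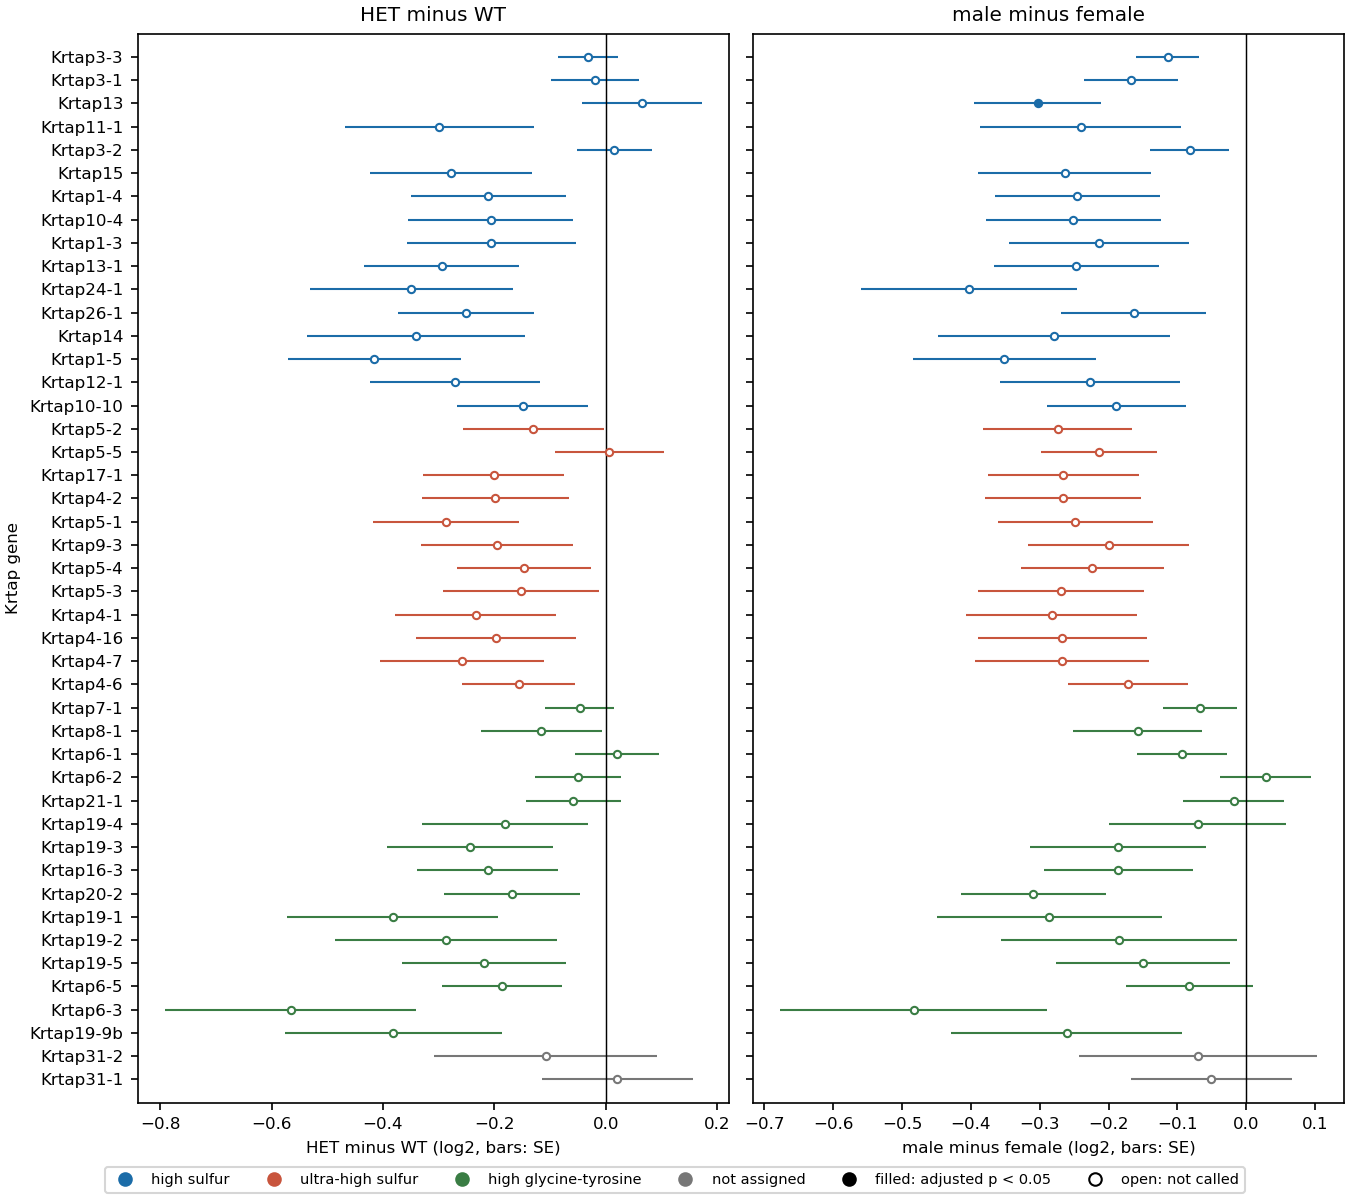
Fitted log2 differences (points) with SE (bars) for the 45 Krtap genes, HET minus WT on the left and male minus female on the right, coloured by class; filled points passed an adjusted p of 0.05. Most points lie left of 0 in both panels, 40 for genotype and 44 for sex, and Krtap13 for sex is the filled point.

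Between the sexes, 1 Krtap gene was called: Krtap13 was lower in males. That is 2.22% of the members, against 3.62% of all genes called in either direction and 2.51% called lower in males. Krtap13 ran from 9.12 to 11.13 in females (median 10.27) and from 6.15 to 11.002 in males (median 10.05). The groups overlapped over nearly the whole female range, and 7 males, all WT, lay below every female, at 6.15 to 8.86. The male minus female difference was -0.30 ± 0.093 (SE; limma adjusted p = 0.040). Without the mouse at 6.15 it was -0.26 ± 0.078 (limma adjusted p = 0.041), and on plates 1, 2 and 3 alone -0.27, -0.39 and -0.27, none called.

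The call of Krtap13 lay close to the threshold. It was lost when arrays were centred on their median (limma adjusted p = 0.059), after quantile normalization (0.060) and with plate as a random block (0.056), at differences of -0.29, -0.28 and -0.29. With the mean hair keratin level in the model the limma difference was -0.29 with an adjusted p of 0.070, so that 0 members were called there, against 2.92% of all genes. Krt84 and Krt36, whose levels Krtap13 follows, had male minus female differences of -0.024 ± 0.024 and -0.062 ± 0.030, with limma adjusted p-values of 0.69 and 0.29.

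The rest of the family leaned the same way without passing. Estimates were below 0 for 44 of 45 genes (97.8%, against 55.1% of all genes), the exception being Krtap6-2 at 0.028, and the median was -0.22 against -0.0060 over all genes. At an unadjusted p under 0.05 there were 21 members (46.7%), against 16.4% of all genes. Since the members vary together, neither count is one of separate observations. Next after Krtap13 by p were Krtap20-2, a high glycine-tyrosine gene, at -0.31 ± 0.11 (limma adjusted p = 0.077), Krtap1-5 at -0.35 ± 0.13 (0.13), Krtap24-1 at -0.40 ± 0.16 (0.14) and Krtap5-5 at -0.21 ± 0.084 (0.15). By class the median was -0.24 for high sulfur, -0.27 for ultra-high sulfur and -0.16 for high glycine-tyrosine genes.

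Genes of other structures in the skin also differed between the sexes. The median male minus female difference was -0.27 for 12 hair keratins with 0 called. Of the 12 inner root sheath and companion layer genes (median -0.30), 2 were called lower in males, Gata3 at -0.14 ± 0.035 and Krt25 at -0.36 ± 0.10 (limma adjusted p = 0.010 and 0.023), and Krt26 came next at -0.39 ± 0.13 (0.054). Of 19 hair regulator and matrix genes (median -0.13), 1 was called, Foxn1, lower in males at -0.17 ± 0.047 (limma adjusted p = 0.015), with Crym at -0.32 ± 0.10 and Lef1 at -0.26 ± 0.087 next (0.055 and 0.080). Of 8 genes of the bulge and resting follicle (median -0.093, with 5 below 0 and 3 above), 3 were called lower in males: the stem cell markers Lgr5 at -0.29 ± 0.065, Cd34 at -0.21 ± 0.064 and Lhx2 at -0.17 ± 0.053 (limma adjusted p = 0.0015, 0.036 and 0.045).

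Outside the follicle, the 5 adipocyte genes had a median male minus female difference of -0.22, close to that of the Krtap genes, and all 5 were below 0. Of these, 2 were called lower in males, Adipoq, the gene of adiponectin, at -0.30 ± 0.074 and Fabp4 at -0.26 ± 0.076 (limma adjusted p = 0.0068 and 0.035), with Plin1 at -0.22 ± 0.087 next (0.16). The 5 dermal fibroblast genes were split: the collagen genes Col3a1, Col1a1 and Col1a2 were higher in males, at 0.26 ± 0.053, 0.24 ± 0.058 and 0.20 ± 0.059 (limma adjusted p = 0.00037, 0.0054 and 0.033), and Lum, the gene of the proteoglycan lumican, was lower at -0.28 ± 0.086 (0.048). In the epidermis, Krt14 of the basal layer and Krt1 of the suprabasal layers were called higher in males, at 0.074 ± 0.019 and 0.11 ± 0.032 (limma adjusted p = 0.011 and 0.039). The next genes of these lists were Krt5 at 0.037 ± 0.018 and Col17a1 at 0.012 ± 0.029 for the basal layer, and Krt10 at 0.033 ± 0.012 and Lor at 0.019 ± 0.030 for the suprabasal layers, none called. The part of these tissues in the Krtap estimates was not tested. In the fit with the hair keratin level, the median Krtap difference was 0.011 and 17 of 45 genes were below 0. Of the 12 hair keratins in that level, 10 had an r above 0.5 with the mean Krtap level. The fit therefore takes out a difference the keratins share with the family, whatever sets it.

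The size of the sex estimates differed between plates. The median Krtap difference was -0.049 on plate 1, -0.42 on plate 2 and -0.21 on plate 3, and 30 of 45 genes were below 0 on each. No member passed the sex by plate interaction (lowest limma adjusted p = 0.89), and none had an unadjusted p under 0.05 there, against 5.74% of all genes. The median was -0.20 in WT and -0.24 in HET mice.

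No plate difference was called in the family. No Krtap gene passed the limma F test for plate, nor an unadjusted p under 0.05 in it (lowest p = 0.25), against 4 of 18810 genes (0.0213%) called and 0.808% at an unadjusted p under 0.05. That last share is under the 5% that a test gives when nothing differs, and whether the values were adjusted for plate before deposit was not given in the sources used here. The smallest plate p-values were those of Krtap19-1, whose means were 9.80 ± 0.86, 9.54 ± 1.17 and 9.48 ± 1.03 on plates 1, 2 and 3, and of Krtap19-3, at 10.096 ± 0.75, 9.93 ± 0.91 and 9.84 ± 0.74. Krtap4-2, Krtap1-5 and Krtap15 followed, each also with its highest mean on plate 1. Relative to plate 1, the estimates ran from -0.27 to 0.054 on plate 2 and from -0.31 to -0.031 on plate 3. The medians were -0.11 and -0.15, with 39 and 45 of the 45 genes below 0, against 9368 and 9737 of 18810 genes. Here too the members vary together and are not separate observations. The genotype by plate interaction called no member (lowest limma adjusted p = 0.46), with Krtap3-3 the single member at an unadjusted p under 0.05 (0.024), against 9.07% of all genes.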

How the data were processed

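The authors deposited log2 values, 1 per probe set and array, made with RMA (background correction, normalization across arrays, 1 summary per probe set), according to the labels and the submitters' processing notes. The RMA version was not given in the sources used here. There were 35556 probe sets, 171 of them empty. Genotype, sex, plate and the 2 arrays marked as outliers were taken from the labels. Gene symbols came from the platform's probe set annotation, updated through RefSeq, with 21201 probe sets naming 1 gene, 1881 several and 12303 none. The highest-mean probe set was kept for each of 18810 genes.

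The comparisons used limma 3.58.1 (R 4.3.3; lmFit and eBayes with a trend) on genotype, sex and plate together, with Benjamini-Hochberg adjustment over all genes at 0.05. Nothing in the labels links litters, so p-values measure the spread between mice and treat the mice as unrelated. The backcross mice may include siblings, and kinship was not modelled, so p-values may be too small. Interactions were added in separate fits. Correlations used residuals after those terms (Python 3.11.15, numpy 2.4.6, scipy 1.17.1). Their p-values came from two-sided permutation tests with 100000 draws, adjusted over 180 gene by regulator pairs and, separately, 180 gene by keratin pairs. The scripts were tested on simulated data.

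Classes were to be set from protein composition. No protein table was used here, so they were assigned from the subfamily names. The members and gene lists were chosen with earlier results of these data known, and the hair keratin covariate, the keratin pairs and the fit without the mouse lowest in Krtap13 were added after seeing the data. Named genes are, per class, the 4 highest and 2 lowest means; per comparison, the called genes or the 5 smallest p-values, and for genotype all members on chromosome 7; for correlations, the 5 highest and 5 lowest medians, the 3 highest and 2 lowest pairs, and the 15 highest and 5 lowest outside genes; per gene list, the 3 smallest p-values in a comparison with a call; and the 5 most variable members. Genes named beyond this were chosen after their values were seen.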

Additional observations from a re-analysis of the deposited data

How the results depend on the processing

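The count of Krtap genes called between the sexes, 1 as reported, was 0 with arrays centred on their median, after quantile normalization, with plate as a random block, on plates 1, 2 and 3 alone, in WT mice alone, in HET mice alone and with the hair keratin level as covariate. Subsets hold fewer mice, and the cause of the other changes was not tested. It stayed 1 with the outlier arrays included, without the mean-variance trend, with the mean of a gene's probe sets, with genes above the array median alone and without the mouse lowest in Krtap13. The median male minus female difference was 0.011 with the hair keratin covariate, against -0.22 as reported, and lay between -0.42 and -0.049 in the other settings. For genotype, 0 members were called in every setting run, and the median difference lay between -0.23 and -0.016. For plate, 0 were called in every setting. The median correlation of Krtap pairs lay between 0.58 and 0.71, and the called regulator pairs between 138 and 178. No paired analysis was possible because the labels give the genotypes no shared replicate numbers. Krtap4-6, Krtap31-1 and Krtap31-2 lie below the array median, where differences are measured with less signal over background.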

Other observations

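The genes whose levels were most like those of Krtap13 across mice, looked up after its values had been seen, were 2310057N15Rik (Pearson r = 0.94), 2310034C09Rik (0.93) and 2310079G19Rik (0.84), all on chromosome 16, where Krtap13 lies. Krt36 (0.81), Krt84 (0.81), Krtap3-3 (0.71), 2310061N02Rik (0.69) and Krtap3-1 (0.66) followed. Aloxe3, a lipoxygenase gene of the epidermal barrier (0.63), and Tgm6, a transglutaminase gene (0.63), were the last of the 10. Foxq1, a forkhead gene known from hair medulla, was the gene of the regulator list whose r with the mean Krtap level was below 0 (-0.26), and its r with Krtap13 was 0.33. Lgr5, a marker of follicle stem cells, had an r of 0.68 with the mean Krtap level and -0.11 with Krtap13.

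On the arrays labelled as outliers, the Krtap values of WT replicate 50 had a median of 10.24 (3.97 to 11.89), and those of WT replicate 75 a median of 6.34 (2.26 to 9.12). The 13 probe sets that name a Krtap gene together with other genes had means between 10.19 and 12.48 and correlations of 0.87 to 0.94 with the mean Krtap level. The 2 probe sets of Krtap4-2 had means of 9.61 and 11.05 and an r of 0.93 with each other.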
